A study of Sus scrofa with 8 samples.

Results

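The swine leukocyte antigen (SLA) region is the major histocompatibility complex of the pig. It was taken as all gene rows of the deposited annotation on chromosome 7 of Sscrofa11.1 whose start lay from 22500000 to 25200000, the sequence that holds SLA-11. The rule used coordinates and no measured value. It gave 160 of the 30364 gene rows of the annotation. The rows comprised 135 protein-coding genes, 16 long non-coding RNA (lncRNA) genes and 9 pseudogenes. The study dissected tracheal submucosal glands from 4 CFTR-/- and 4 wild-type newborn pigs and profiled their polyadenylated RNA by 3′ single-cell RNA-seq. All 8 libraries were counted against this 1 annotation, so it carries no value per animal or genotype. Count matrices were not analysed here, the depth per library is unknown, and no level of any SLA gene in the glands is given. Genes are not replicates, so lengths, shares and counts are descriptions with no test. Where it was computed, the same value over all protein-coding genes is set beside them. Copies, identities, very short introns and overlaps on opposite strands have no such value.

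Class I SLA molecules present peptides made inside the cell to CD8+ T cells. Each has a heavy chain from the region and beta 2-microglobulin from another chromosome. In a class I heavy chain gene, exons 2 and 3 encode the domains that hold the peptide, and exon 4 encodes the immunoglobulin-like domain next to the membrane. Class II molecules pair an alpha with a beta chain, mostly on professional antigen-presenting cells, and present peptides from outside the cell to CD4+ T cells. Between both groups lies a stretch called class III, with complement, cytokine and heat shock genes. Airway epithelium carries class I, and class II can be induced there by interferon gamma.

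The names divided as the classes do. Of the 21 SLA-named genes, 9 were class I, with 7 coding genes and 2 pseudogenes, and 12 were class II, with 8 coding genes and 4 pseudogenes. A further 6 coding genes had class I, class I related or class II products but no SLA name. LOC100515902 and LOC100513601 were of class I, and LOC100153163 was described as MHC class I polypeptide-related sequence B. LOC100153139, LOC100513097 and LOC106504372 were of class II. The class I cluster held SLA-1, SLA-5, SLA-2 and SLA-3 on the plus strand and the pseudogenes SLA-4 and SLA-11. SLA-8, SLA-7 and SLA-6 lay in a second group from 23622352 to 23649342. All 8 class II coding genes lay between 24825037 and 25182665, and 6 of them were on the minus strand. The region held 59.3 gene rows per Mb, against 16.2 on chromosome 7 and 11.6 over all placed chromosomes.

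**Figure D1:**
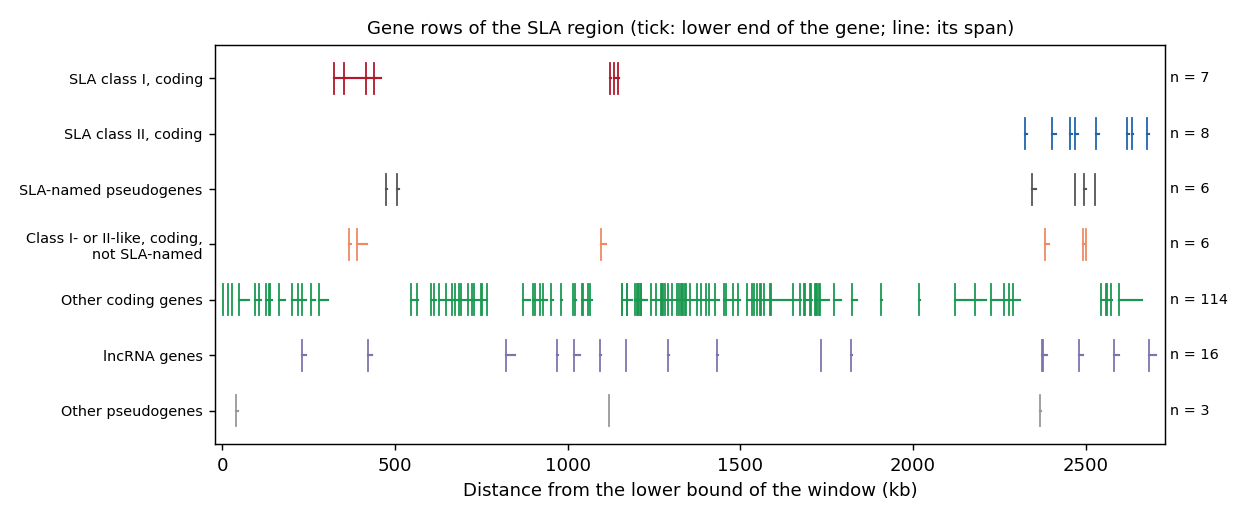
Gene rows of the SLA region, drawn as ticks at the lower end of each gene with its span as a line, by distance in kb from the lower bound of the window. The 7 class I coding genes fall into 2 groups, the 8 class II coding genes lie at the far end, and most other coding genes lie between them.

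The models of the class I cluster reached into each other. SLA-1, a classical class I gene, spanned 22824137 to 22920154, which is 96018 bp. Its models included 2 coding transcripts. The first ended at 22827965 with a 3′ UTR of 419 bp. In the second, an intron of 92678 bp led to a last exon at 22920060 to 22920154, with a 3′ UTR of 90 bp. The same last exon closed a transcript of LOC100513601, a class I-like gene that begins at 22888616, after an intron of 28221 bp. SLA-2, also a classical class I gene, had the opposite arrangement. Of its 9 transcripts, 3 coding ones and 1 non-coding one began at 22916747, and an intron of 39378 bp separated this first exon from the rest at 22956420. SLA-5 lay inside the span of SLA-1, and SLA-3 inside that of SLA-2. Over all coding genes of the region, 6 of 135 had a coding transcript with an intron above 20 kb, namely SLA-1, LOC100513601, SLA-2, HSPA1L, TNXB and BRD2. The share over all protein-coding genes was 25.0%.

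The last 30 coding bases of both SLA-1 transcripts are shown because their ends come from exons far apart. Capitals mark the bases that lie in the last exon, stop codon included, and the bases up to there are on the plus strand of chromosome 7 from 22827357.
SLA-1, transcript ending at 22827965: gtgtcccttaccaagggtcctagagTGTGA
SLA-1, transcript ending at 22920154: gtgtcccttaccaagggtcctagagTGTGA
The 2 sequences were identical, so the choice of last exon changed the 3′ UTR and left the coding sequence of 1086 bp, stop codon included, as it was.

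A class I copy with no gene model of its own lay between the borrowed exons. The 8 exons of the curated SLA-3 transcript were matched to the region with blastn, which found 12 copies, SLA-3 included, 9 on the plus and 3 on the minus strand. In 7 copies every matched exon lay in exons of the gene there. In SLA-4 and SLA-11, both pseudogenes, none did. The copy from 22916895 to 22920292 matched all 8 exons over 3398 bp at a mean identity of 90.8%, and 7 of its 8 exons lay in no gene's exons by the rule of at least 50% of the match. Its first exon, from 22916895 to 22917042, overlapped the far first exon of SLA-2, which ends at 22917041. Its eighth, from 22920060 to 22920292, began with the 95 bp last exon used by SLA-1 and LOC100513601. The exons between them were in no model. The copies at SLA-5 and LOC100513601 were also matched beyond their models, in 2 exons and 1 exon.

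**Figure D2:**
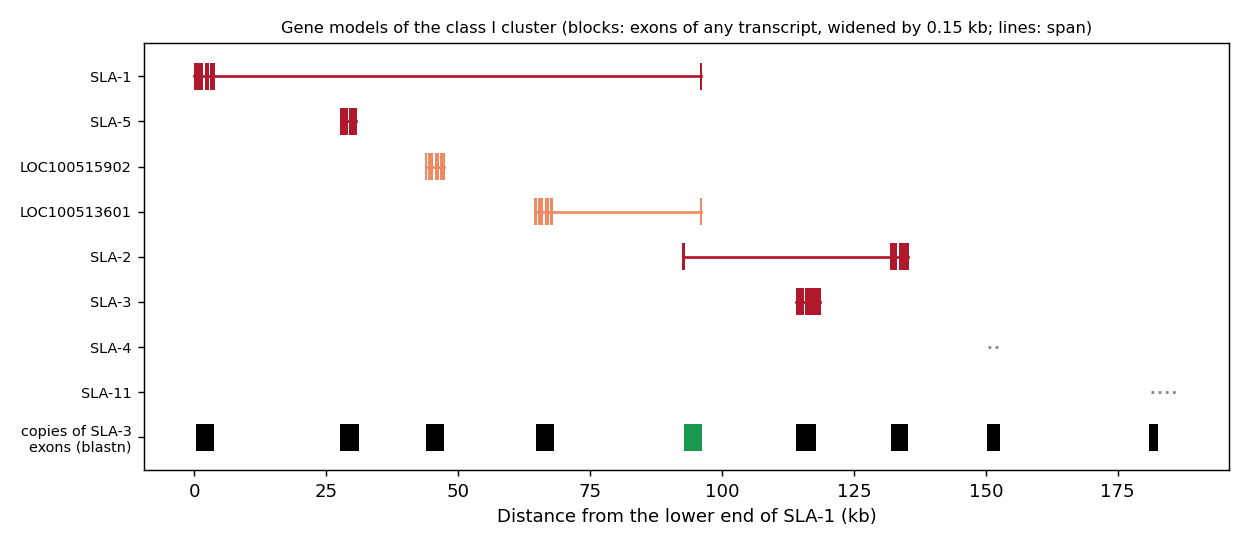
Gene models of the class I cluster by distance in kb from the lower end of SLA-1. Blocks are exons of any transcript, drawn slightly wider than to scale, lines are gene spans (dotted for pseudogenes, which have no exons), and the lowest row shows copies of the SLA-3 exons, with the copy that has no gene model of its own in green between the far last exon of SLA-1 and the far first exon of SLA-2.

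The copies were less alike in exons 1, 2 and 3, which encode the signal peptide and the peptide-holding domains, than in exon 4. Over the 11 copies other than SLA-3 with a match to exon 4, identity to SLA-3 was 91.6 to 99.3%, with a median of 98.2%. For exon 2 it was 82.3 to 94.1%, with a median of 87.0% over 10 copies, and for exon 3 it was 78.1 to 93.8%, again with a median of 87.0% over 10 copies. Exon 1 was as low, at 75.4 to 89.2% with a median of 86.8% over 8 copies. Exons 5, 7 and 8 lay between, with medians of 94.6, 92.2 and 91.9% over 9, 7 and 7 copies. Exon 6, of 33 bp, had a median of 100% over 7 copies. Identity is over matched bases, and some matches were partial. Exon 2 of SLA-6 was matched over 147 of 270 bp, and exon 3 of SLA-8 over 170 of 276 bp. SLA-2 was the copy nearest to SLA-3 in exon 4, at 99.3%, and had 94.1% in exon 2. SLA-1 had 98.2% in exon 4 and 94.1% in exon 2. The pseudogene SLA-4 kept 98.2% in exon 4 and had 84.3% in exon 2. SLA-11, on the minus strand, had 98.5% in exon 4 and no match to exons 1, 2 and 3. SLA-6, SLA-7 and SLA-8, the non-classical genes of the second group, had 91.6, 93.8 and 93.1% in exon 4.

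**Figure D3:**
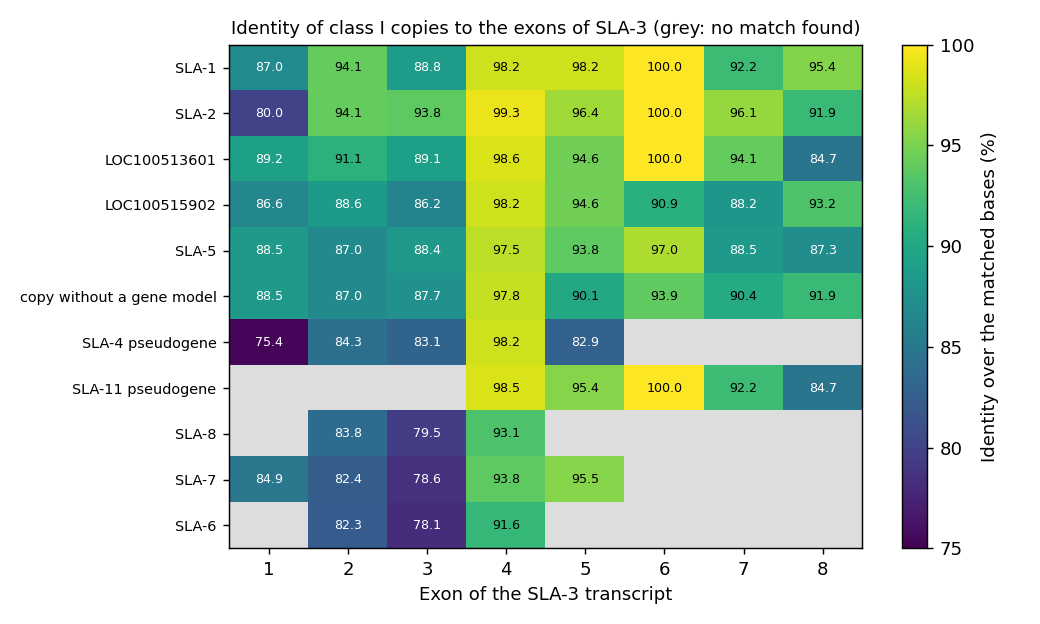
Identity in percent of 11 class I copies, by row, to each exon of the SLA-3 transcript, by column, over the bases matched by blastn, with grey where no match was found. Exon 4 is the column with a match in every row, from 91.6% in SLA-6 to 99.3% in SLA-2.

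The stretches below show both kinds of exon. Each is the 30-base stretch of that SLA-3 exon with the most differences in total over the copies at SLA-1, LOC100515902, LOC100513601 and SLA-2 and the copy without a model, where all of them aligned without a gap. Capitals mark bases that differ from SLA-3, and all lie on the plus strand of chromosome 7. Exon 2 gave the following.
SLA-3, chr7:22938910-22938939: gcacagactttccgagtgaacctgaacaac
SLA-1, chr7:22825043-22825072: gcacagaTtAAccgagtgaacctgaaGaCc
SLA-2, chr7:22956629-22956658: gcacagactGAccgagtgaacctgaaGaCc
LOC100513601, chr7:22889514-22889543: gcacagacttAcGgagtgGGcctgaacaCc
LOC100515902, chr7:22868679-22868708: gcacagaTttAccgagGgaacctgCGcGGc
copy without a gene model, chr7:22917575-22917604: gcacagactCtccgagGgaaActgaacaCc
Exon 4 gave the following.
SLA-3, chr7:22940171-22940200: agcgcgagggccaggaccagagccaagaca
SLA-1, chr7:22826320-22826349: agcgGgagggccaggaccagagccaGgaca
SLA-2, chr7:22957894-22957923: agcgcgagggccaggaccagagccaGgaca
LOC100513601, chr7:22890791-22890820: agcgGgagggccaggaccagagccaGgaca
LOC100515902, chr7:22869940-22869969: agcgGgagggccaggaccagagccaGgacT
copy without a gene model, chr7:22918852-22918881: agcgGgagggGcaggaccagagccaGgaca
At these places, chosen for their differences, exon 4 had 1 to 3 differences per copy, and exon 2 had 4 to 7.

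The predicted heavy chains were most alike within the first cluster. Proteins translated from the models had a median identity of 67.5% over the 21 pairs of the 7 SLA-named class I genes, from 62.5% for SLA-1 with SLA-6 to 90.9% for SLA-2 with SLA-3. SLA-1 and SLA-2 were 89.5% identical, and SLA-1 and SLA-3 were 88.6%. SLA-5 had 84.0 to 86.0% with these 3 genes. LOC100513601 was 92.2% identical to SLA-1, above any pair of SLA-named genes. LOC100515902 was 85.3% identical to SLA-2. Its reading frame held a stop codon in the genome at codon 120 of 361, although the annotation has it as protein-coding. SLA-8, SLA-7 and SLA-6 were 62.5 to 73.7% identical to SLA-1, SLA-2 and SLA-3. The model of SLA-5 was unlike the others: its single transcript of 1053 coding bases was cut into 19 exons over 2895 bp, 12 of its introns were shorter than 10 bp, and it ended at the stop codon.

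The class II genes were less alike. The 4 alpha chains, SLA-DRA, SLA-DQA1, SLA-DMA and SLA-DOA, had a median protein identity of 43.3% over 6 pairs, from 30.4% for SLA-DRA with SLA-DMA to 57.2% for SLA-DQA1 with SLA-DOA. The 4 beta chains, SLA-DRB1, SLA-DQB1, SLA-DMB and SLA-DOB, had a median of 41.3% over 6 pairs, from 29.5% for SLA-DMB with SLA-DOB to 64.0% for SLA-DRB1 with SLA-DQB1. SLA-DRA and SLA-DQA1 with their beta partners make the classical DR and DQ molecules. SLA-DMA with SLA-DMB loads peptide onto them, and SLA-DOA with SLA-DOB modulates this step. The DR beta gene had a near copy. LOC100153139, a coding gene from 24882212 to 24894226 described as a DR beta chain-like gene, was 84.2% identical to SLA-DRB1 in protein and 91.0% in coding sequence.

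Among DR beta-like copies, exon 3 was nearly the same in some and exon 2 was not. Exon 3 of SLA-DRB1, which encodes the immunoglobulin-like domain of a beta chain, had a match of 282 bp at 99.6% in LOC100153139. It also matched at 99.6% in the pseudogene LOC100153969, at 99.3% in the pseudogene SLA-DRB4 and at 99.3% in LOC106504372, which is a single exon of 283 bp. Exon 2, for the peptide-holding domain, matched LOC100153139 at 80.9% and SLA-DRB4 at 79.0%. SLA-DQB1 lacked this contrast, with a match of 79.5% to exon 2 and 76.1% to exon 3. Exon 3 also matched SLA-DOB and the lncRNA gene LOC100155975 at 77.1% and the pseudogene SLA-DYB below that. These had no match to exon 2, so the exons could not be compared there. The stretches below were chosen for the most differences between SLA-DRB1 and LOC100153139, both on the minus strand, and capitals mark bases that differ from SLA-DRB1. Exon 2 gave the following.
SLA-DRB1, chr7:24906338-24906367: cacaactaccggatcttggatacattcctg
LOC100153139, chr7:24887046-24887075: TGcaGctacAAgGtctATgCGacCttcctT
Exon 3 gave the following.
SLA-DRB1, chr7:24903673-24903702: cgagtggagcaccccagcctgacgagcccc
LOC100153139, chr7:24884514-24884543: cgagtggagcaccccagcctgacgagcccT
The pair had 12 differences in the first stretch and 1 in the second. The SLA-DRB5 pseudogene row, from 24993914 to 25001865, is on the minus strand. The SLA-DRB1 exons matched across that span on the plus strand, in LOC100513097 and LOC106504372.

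No pseudogene of the region had an exon, and Cell Ranger counts reads in exons. All 9 had a gene row alone, against 97.7% without an exon among the 3084 pseudogenes of the annotation. The SLA-named ones were SLA-4, SLA-11, SLA-DRB4, SLA-DQB2, SLA-DRB5 and SLA-DYB, and the others were MIC-1, a class I related gene and the 1 present of 6 such names listed, LOC110255266 and LOC100153969. The class I related gene LOC100153163, which is under no listed name, is coding and has exons. In RefSeq of the same build, 7 of the 9 also had no exon. LOC110255266 and LOC100153969 had 1 exon each there, which the deposited file does not carry. SLA-4 ended at 22976455 in its row, while the match to exon 4 of SLA-3 ran on to 22976632 and that to exon 5 to 22976862.

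Of the 160 genes, 151 had exons. In 3′ libraries most reads come from the end of the transcript, where the 3′ UTR lies, and what its annotated length did to the counts was not tested. The 3′ UTR was measured from the stop codon to the transcript end, over exons alone, in whichever coding transcript reached farthest. The 15 SLA-named coding genes had a median of 355 bp, against 317 bp over the 135 coding genes of the region and 714 bp over all 20674 protein-coding genes. Quartiles were 125.5 and 747.5 bp in the region and 211 and 1863 bp over all genes. Over the 7 class I genes the median was 280 bp, and over the 8 class II genes it was 385.5 bp. In class I, SLA-5 had no 3′ UTR, SLA-1 had 90 bp, SLA-8 had 205 bp, SLA-6 had 280 bp, SLA-2 had 317 bp, SLA-7 had 653 bp and SLA-3 had 1404 bp. The class I models thus ran from none to the longest of all SLA-named genes. SLA-1 had 419 bp in its other coding transcript, which ends nearer. For SLA-3 the 8-exon curated transcript had 567 bp, and the 1404 bp belonged to a 6-exon transcript. Curated transcripts had shorter 3′ UTRs in other class I genes as well, with 279 bp in SLA-6, 22 bp in SLA-2 and no 3′ UTR in SLA-8 and SLA-7.

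In class II no gene was below 225 bp by this measure. SLA-DMA had 225 bp, SLA-DRB1 349 bp, SLA-DMB 355 bp, SLA-DQB1 357 bp, SLA-DRA 414 bp and SLA-DQA1 487 bp. The DO genes had the highest values, 1030 bp in SLA-DOB and 1139 bp in SLA-DOA. For SLA-DOB this rested on the choice of transcript, since its curated one, which also has the longest coding sequence, had 45 bp. No 3′ UTR was annotated in 11 of the 135 coding genes of the region, which is 8.15%, against 8.88% over all protein-coding genes. They were UBD, a ubiquitin-like modifier, the olfactory receptor OLF42-1, the myelin protein MOG, the zinc finger protein ZFP57, RNF39, TRIM26, SLA-5, GNL1, the mitochondrial ribosomal protein MRPS18B, HSP70.2 and LOC106504372. Below 100 bp were 25 genes, or 18.5%, against 15.7%. The comparison changed when genes with only a LOC name were left out. Among genes with another name, 10 of 118 in the region had no 3′ UTR, or 8.47%, against 2.42% over all such genes, and 22 were below 100 bp, or 18.6%, against 8.50%. Their median was 289 bp in the region and 902 bp over all such genes. The 5 longest in the region were LOC106504370 with 5804 bp, the butyrophilin-like genes LOC100155579 with 4259 bp and LOC100512174 with 3790 bp, the transcription factor ATF6B with 3797 bp, and TRIM40 with 3701 bp. In the transcript with the longest coding sequence, ATF6B had 32 bp and TRIM40 had 1051 bp, and the others kept their values.

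**Figure D4:**
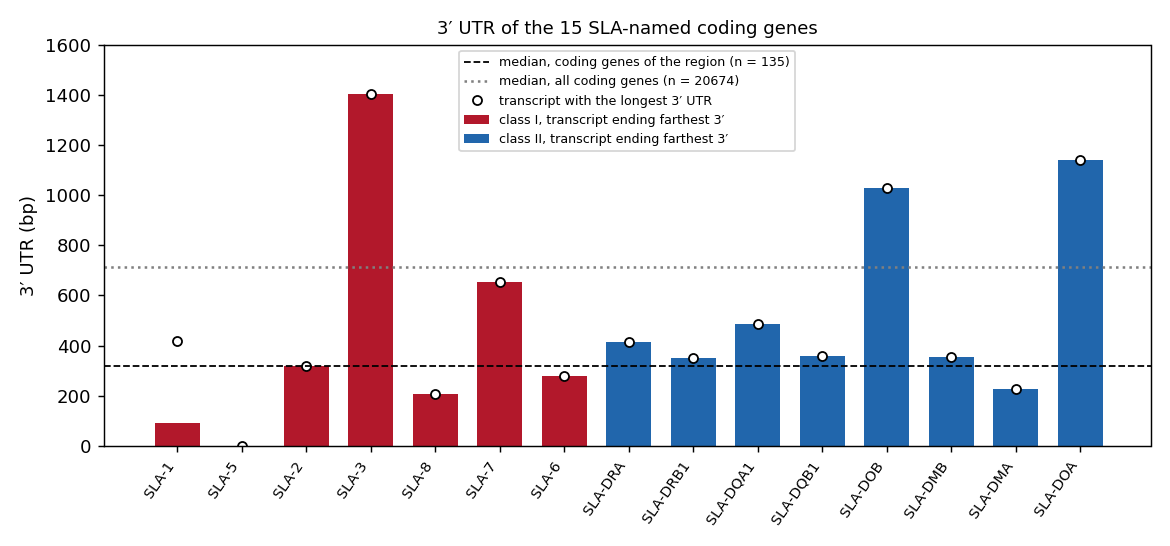
3′ UTR in bp of the 15 SLA-named coding genes, in order along chromosome 7, with bars for the transcript that ends farthest 3′ and open circles for the transcript with the longest 3′ UTR. Lines mark the medians of 317 bp in the region and 714 bp over all coding genes, and bar and circle are visibly apart only for SLA-1, at 90 and 419 bp.

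Near copies can also keep a 3′ read from being placed. The last 500 bases of each spliced transcript were cut into all 98 bp windows, and a window was called unique when its sequence occurred once in the genome on both strands. A window across a splice junction was called unique when it was in no transcript of another gene and nowhere unspliced. A second copy outside all exons made a window not unique, just like a copy in exons of another gene. Copies outside exons are left out where windows in transcripts of another gene are counted. Which of these measures the read counting follows was not tested. Windows overlap each other and are not independent, and the effect on counts was not tested. Of the 15 SLA-named coding genes, 12 had all 403 windows unique. The exceptions were SLA-DRB1 with 194 windows (48.1%), SLA-1 with 260 (64.5%) and SLA-5 with 333 (82.6%). Over all protein-coding genes, 11.3% had at least 1 window that was not unique, and 4.61% had fewer than 50% unique. All 7 other class II genes, from SLA-DRA to SLA-DOA, were fully unique. Over the last 300 bases, the unique share was 72.9% in SLA-DRB1, 97.0% in SLA-1 and 90.1% in SLA-5. With 50 bp windows over the 500 bases it was lower in these genes, at 32.4, 31.5 and 69.4%.

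The second copies were in relatives within the region. Of the 209 windows of SLA-DRB1 that were not unique, 118 lay within 1 exon and 91 crossed a junction. In genome sequence, 121 windows of SLA-DRB1 occurred at the end of LOC100153139, from 24882214 to 24882574. SLA-1 had 143 windows that were not unique, 101 within 1 exon and 42 across a junction. In genome sequence, it shared 101 windows with LOC100513601, 69 with SLA-2, 60 with SLA-5, 48 with SLA-3, 44 with LOC100515902 and 11 with SLA-7. It further shared 69 with the pseudogene SLA-11, 19 with the pseudogene SLA-4, 80 with the exon 4 copy that runs past the end of the SLA-4 row, and 17 with the copy that has no gene model. All of these lay in copies of exon 4. With its other coding transcript, which ends at 22827965, SLA-1 had all 403 windows unique (100%). A window in transcripts of another gene was found in 3 of the 15 SLA-named coding genes and in 8 of 135 over the region, or 5.93%, against 9.50% over all protein-coding genes. Among the SLA-like genes, LOC100513601 had 67.2% unique, LOC100153139 had 47.6% and LOC106504372 had 41.4% of 186 windows. LOC100515902, LOC100153163 and LOC100513097 were fully unique.

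**Figure D5:**
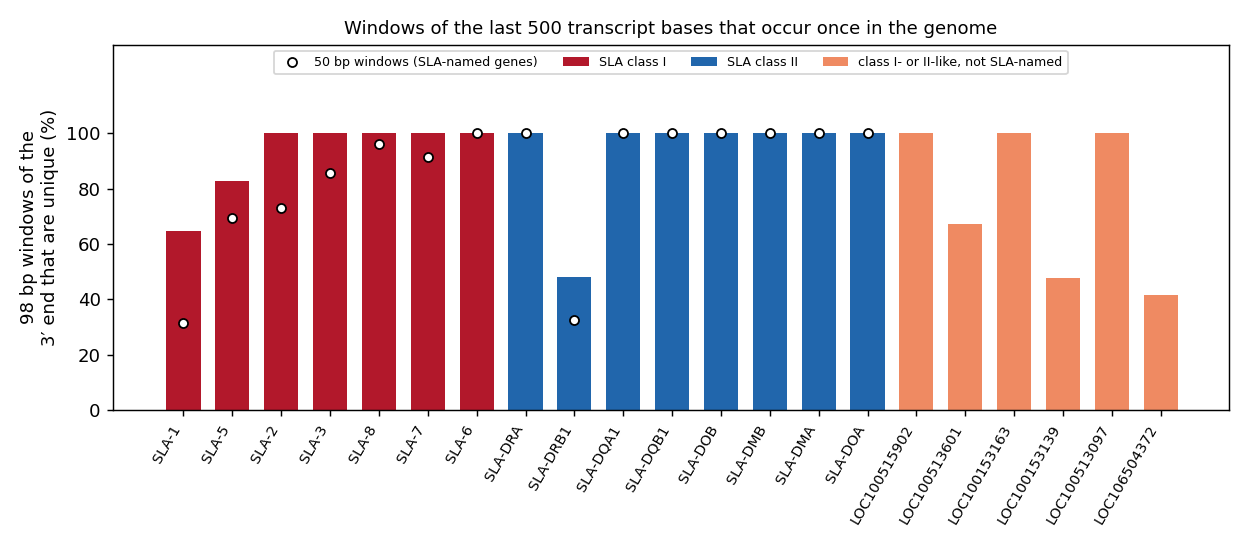
Share in percent of 98 bp windows of the last 500 transcript bases that occur once in the genome, for the 15 SLA-named coding genes and 6 class I- or II-like genes, with open circles for 50 bp windows in the SLA-named genes. SLA-1, SLA-5 and SLA-DRB1 are the SLA-named genes below 100% with 98 bp windows, and SLA-2, SLA-3, SLA-8 and SLA-7 fall below 100% as well with 50 bp windows.

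The 4 listed genes that serve class I loading in the region had unique 3′ ends. TAP1 and TAP2, which form the peptide transporter of the endoplasmic reticulum, had 3′ UTRs of 410 and 753 bp. For TAP1 this rested on the choice of transcript, since the one with the longest coding sequence had 14 bp. PSMB8 and PSMB9, catalytic subunits of the immunoproteasome, had 248 and 49 bp. All 4 had only unique windows and shared no exon base with another gene on their strand. Of 23 further antigen presentation genes listed for the rest of the genome, 22 were present, all outside the window, with a median 3′ UTR of 736.5 bp. PSME2 with 47 bp and PSMB10 with 63 bp were the 2 below 100 bp. Windows were all unique in 21 of them. The exception was B2M, the light chain of class I, with 78.9%, which was named after its value was seen.

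Of the listed class III genes, TNF was the only one with a 3′ UTR above the median of 714 bp over all coding genes. Complement C2, CFB and C4A had 3′ UTRs of 279, 54 and 107 bp. TNF, LTA and LTB, cytokines of the tumour necrosis factor family, had 785, 539 and 256 bp. AGER, the receptor for glycation end products, had 173 bp, and NCR3, a natural killer cell receptor, had 298 bp. AIF1 and LST1, genes of myeloid cells, had 123 and 81 bp. NOTCH4 had 591 bp and TNXB, a matrix protein, had 197 bp. All of these class III genes had only unique windows. The tripartite motif genes TRIM10, TRIM15, TRIM26, TRIM31, TRIM39 and TRIM40 lay in the window as well, with 483, 130, 0, 3277, 1488 and 3701 bp, and TRIM27 was on an unplaced sequence.

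The heat shock 70 genes held the member with the lowest share of windows unique in the genome. HSP70.2, an inducible chaperone gene from 23925929 to 23927854, was annotated as its coding sequence of 1926 bp alone, and only 4 of its 403 windows (0.993%) were unique. A second copy of all 1926 bp lay on the same strand at 23915072 to 23916997, with 3 mismatches and no gap (99.8%). No gene had an exon there, and 100% of the HSP70.2 windows lay in no transcript of another gene. Both copies lay in an intron of HSPA1L, a relative on the opposite strand with a 3′ UTR of 446 bp, 1 model of which had an intron of 25758 bp. The listed names HSPA1A and HSPA1B were not used by the annotation.

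The butyrophilin-like genes between class III and class II were the other group with several ends that were not unique. These are surface proteins of the immunoglobulin family. LOC100512174 had 34.2% unique windows and LOC100155579 had 31.8%. LOC100512174 shared 265 windows with LOC100155579. LOC106507398 had 35.0% and LOC106504368 69.5%. The share of windows in no transcript of another gene was 34.2% in LOC100512174 and 89.3% in LOC100155579. It was 100% in LOC106507398 and LOC106504368, whose second copies lay outside the exons of other genes. BTNL2, LOC100513291, LOC100513868 and LOC102158214 were fully unique. Of the remaining genes, the olfactory receptor OLF42-1 had 44.4%, with 224 windows found again in the pseudogene LOC110255266, LOC106504370 and PPT2 had 82.9% each, PPP1R10 had 98.8% and PRRC2A had 99.8%. In each of these remaining genes, 100% of windows lay in no transcript of another gene. Over the region, 16 of 135 coding genes had a window that was not unique and 8 had fewer than 50% unique, or 11.9 and 5.93%, against 11.3 and 4.61% over all genes.

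Shared exon bases on 1 strand, which leave a read without a single gene, were found in 6 coding genes of the region, or 4.44%, against 3.36% over all protein-coding genes. They formed 3 pairs. SLA-1 and LOC100513601 shared the 95 bp last exon, TNXB and ATF6B shared 162 bp, and LST1 and AIF1 shared 23 bp. With introns included, the spans of 4 of the 15 SLA-named coding genes overlapped a gene on their strand, or 26.7%, against 7.41% in the region and 7.28% over all protein-coding genes. Overlaps on opposite strands, such as 299 bp between CYP21A2 and TNXB or 229 bp between ATP6V1G2 and NFKBIL1, do not count here, since the library keeps the strand.

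Promoters were searched because class II genes are known to share an S-X-Y module upstream of their start. The window ran from 250 bp before to 50 bp after the annotated gene start, on both strands. The core ATTGG of the CCAAT box was found in all 8 class II genes and in 5 of 7 class I genes, against 35.7% of 20664 promoters of coding genes. The longer Y box form CTGATTGG, which holds ATTGG, was found in 4 of 8 class II and 2 of 7 class I genes, against 3.63%. TATAAA occurred in 1 class II and 2 class I genes, against 11.6%. The interferon-stimulated response element, a motif of interferon-induced genes, was searched only as an exact pattern of letters. This pattern was found in none of the 15, against 3.72%. Forms of the element that deviate from the pattern were not searched, so the result does not show that these promoters lack it. A match is a description of letters only, and annotated starts may not be where transcription begins. The class II genes with the Y box form upstream of the start are shown with it in capitals, each on the strand of its gene.
SLA-DRA, chr7:24824983-24825012, plus strand: aaaggatttttCTGATTGGctgcagctcaa
SLA-DQA1, chr7:24953401-24953430, plus strand: aggggaagtttCTGATTGGccaaaacctga
SLA-DQB1, chr7:24977311-24977340, minus strand: gttcctcagtgCTGATTGGtacctttccta
SLA-DOA, chr7:25182740-25182769, minus strand: agagaatttctCTGATTGGctgaatacggc
The box began 43 bp before the start of SLA-DRA, 60 bp before SLA-DQA1, 91 bp before SLA-DQB1 and 93 bp before SLA-DOA. In class I, SLA-3 and SLA-6 had it on the reverse strand and after the annotated start. The annotated start of SLA-2 is its far first exon. Taken instead at 22956082, where transcripts of its own copy begin, an alternative chosen after seeing the data, SLA-2 had both ATTGG and CTGATTGG on the reverse strand after the start, and class I counts were 6 of 7 and 3 of 7. The other class I starts were left as annotated. SLA-1 was searched at 22824137, although it also has transcripts that begin at 22824375. SLA-5 was searched at 22851888, although its match to exon 1 of SLA-3 begins at 22851805.

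The deposited annotation of the region was nearly that of RefSeq. All 160 gene spans equalled those of RefSeq, and 158 genes had the same exons, the exceptions being the pseudogenes LOC110255266 and LOC100153969. No coding gene of the region had an edited 3′ end. One gene, a chloride intracellular channel gene called CLIC1 in RefSeq, was named CLIC1_1, and another CLIC1 row lies on chromosome 6. Whether the authors made these differences by editing was not tested. At the lower edge, LOC106504234 started at 22498071, outside, and UBD at 22501130, inside. At the upper edge, the lncRNA gene LOC106504375 started at 25182797, inside, and the collagen gene COL11A2 at 25204496, outside.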

How the data were processed

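The study collected tracheal submucosal glands from 4 CFTR-/- and 4 wild-type newborn pigs for 3′ single-cell RNA-seq and, per the submitters' processing notes, counted them with Cell Ranger 3.0.2 on Sscrofa11.1. The deposited file is the annotation the authors edited from NCBI Sus scrofa Annotation Release 106, and its values are start and end coordinates in bp, counted from 1, a unit other than expression. It has 0 columns of values per sample, so no comparison between genotypes was made. The members and the 8 gene lists were chosen with earlier results of these data known.

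Each model was compared with that of RefSeq in the same release. Windows of 98 bp, near the cDNA read length of such kits (the length used is not given in the sources used here), were searched exactly in the whole genome, and windows across a junction also in the transcripts of other genes, which a search of the genome alone would miss. Count matrices were not analysed here. Copies were found with blastn 2.17.0 (E value 1e-05, word size 11), counted where 1 match reached 100 bp. Proteins were translated from the curated transcript, or the longest coding one with whole codons, and aligned globally with Biopython 1.88 (BLOSUM62, gap open 11, extend 1). No RefSeq protein or promoter table was used, so both came from the genome sequence. On simulated data, 5 of 5 tested measures were recovered, namely 3′ UTR length, windows with a second copy, shared exon bases, motifs and identity. The simulation held no second copy across a junction and tested identity on bases with substitutions alone. The blastn search, the protein alignment and the search with mismatches were not tested. Python 3.11.15 and numpy 2.4.6 were used. Named genes are the SLA-named, listed, exon-sharing and UTR-less genes, those that differ from RefSeq, the 5 longest 3′ UTRs, those at the edges, and those holding second copies; the class I- and II-like, butyrophilin-like and other genes with windows that were not unique, and the opposite-strand pairs, were named after their values were seen. Alternatives changed the member rule, the transcript, the way bases, overlaps, windows and identity are counted, and the mismatches allowed.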

Additional observations from a re-analysis of the deposited data

How the results depend on the processing

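No paired analysis was possible because all libraries share 1 file of gene models, with no value per sample. Over 9 results, 13 of 19 alternatives stayed within 1.5 times the count or length, or within the 95% Clopper-Pearson interval of the share. The coding genes of the region with same-strand shared exon bases were 6, but 2 with at least 100 shared bases and 10 with gene spans. With any shared base the share was 4.44% in the region, against 3.36% over all protein-coding genes. The order was reversed with at least 100 shared bases, at 1.48% against 2.47%. With gene spans the shares were 7.41 and 7.28%. The unique share over the 15 SLA-named coding genes was 93.0%, but 85.3% with 50 bp windows, 97.3% over the last 300 bases, 90.3% when copies with up to 2 mismatches counted, and 95.4% with the transcript of the longest 3′ UTR, an alternative chosen after seeing the data. The intervals treat overlapping windows as independent and are too narrow. Over the 7 SLA-named class I genes, median protein identity was 67.5%, and 67.3% over the shorter protein. Exact matches say what a read could be placed to in this assembly. Alleles of the animals were not analysed here.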
